A study of Mus musculus with 6 samples.

Results

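Hyaluronan is a long sugar chain of the extracellular matrix, and the 9 genes described here make it, cut it, bind it or anchor it to cells. Has1 and Has2 encode hyaluronan synthases, Hyal1 and Hyal2 encode hyaluronidases, Lyve1, Stab1 and Cd44 encode receptors, and Tnfaip6 and Vcan encode secreted proteins that bind the chain. They were chosen by symbol and not by a measured value, and are 9 of the 31017 gene symbols in the count matrices. All 9 were found. The question put to them is which cells of the collecting lymphatic vessel and its surroundings express each gene, and whether those levels differ with age.

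The data were 6 single-cell RNA libraries, made with a droplet method that counts the 3′ ends of transcripts. They came from dermal collecting lymphatic vessels of C57BL/6 mice, the valved vessels that carry lymph between the inguinal and axillary lymph nodes, dissected under Evans Blue dye and digested with collagenase, elastase and dispase. Young mice were 6 weeks old, middle-aged mice 12 months and aged mice 18 months, with 1 library labelled male and 1 labelled female at each age. No genetic change or drug distinguished the groups. Per the labels the 18-month mice were supplied by the National Institute on Aging, so age and supplier cannot be told apart. How many mice made up a library is not given, and p-values here measure only the spread between these 6 samples.

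The deposited values were UMIs (unique molecular identifiers, 1 for each captured transcript). Libraries held 9616652 to 28921825 UMIs, and 24488 barcodes passed (500 genes or more, and no more than 10% of UMIs mitochondrial), 999 to 8228 in each library. Of these, 636 were marked as doublets and left out, and any pair of libraries shared 0 to 12 of the kept barcodes. The 27 clusters were named from marker genes that include none of the 9 genes, which gave 15 classes. Xist and 4 Y-linked genes went against the sex labels of both middle-aged libraries, with 1405 CPM of Xist and 0.111 CPM of the Y-linked genes in the library labelled middle-aged male, and 0.255 and 265 CPM in the library labelled middle-aged female. CPM are UMI counts scaled to the usual common total, here over all kept cells of a library and elsewhere over the library's cells of 1 class. Fibroblast clusters divided by library. In the library labelled middle-aged female 78.3% of fibroblasts, and in the aged male library 76.9%, lay in the cluster led by Krtdap and Dmkn. Of the young male fibroblasts 56.2% lay in the cluster led by Cpz, Col1a1 and Col3a1. The cluster led by Akr1c18 and Smpd3 held 50.4% of fibroblasts in the young female library, 62.5% in the library labelled middle-aged male and 79.1% in the aged female library. These are the libraries with Xist counts (1358, 1405 and 883 CPM), so the main cluster differed between libraries with Xist and libraries with Y-linked counts.

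Hyaluronan is built at the plasma membrane by the synthases from UDP-glucuronic acid and UDP-N-acetylglucosamine and is pushed out into the matrix as it grows. It is turned over by hyaluronidases at the cell surface and in lysosomes, and much of it leaves the skin with lymph. Lyve1 is widely used to mark lymphatic capillaries and is known to be low in the endothelium of collecting vessels, and it is also found on macrophages that lie along vessels.

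The promoter windows of Has1 and Tnfaip6 are shown because both genes had almost all of their UMIs in fibroblasts and both had their highest fibroblast level in the same library. Vcan and Has2 also met both points. The Vcan window, which holds neither of the motifs marked below, is not shown, and no window was given for Has2 or Lyve1. The windows run from 250 bases before to 50 bases after the RefSeq start on GRCm38.p6, 5′ to 3′ on the gene's strand. Capitals mark the letters TGACGTCA in Has1 (chr17:17855139-17855438, minus strand) and TGANTCA in Tnfaip6 (chr2:52037863-52038162, plus strand).
Has1: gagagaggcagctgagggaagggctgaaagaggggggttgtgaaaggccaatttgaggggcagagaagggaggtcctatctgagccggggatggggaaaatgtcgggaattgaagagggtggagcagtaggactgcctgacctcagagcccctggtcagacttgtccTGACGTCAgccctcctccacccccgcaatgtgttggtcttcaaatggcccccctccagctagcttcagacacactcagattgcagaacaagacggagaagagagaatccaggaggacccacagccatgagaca
Tnfaip6: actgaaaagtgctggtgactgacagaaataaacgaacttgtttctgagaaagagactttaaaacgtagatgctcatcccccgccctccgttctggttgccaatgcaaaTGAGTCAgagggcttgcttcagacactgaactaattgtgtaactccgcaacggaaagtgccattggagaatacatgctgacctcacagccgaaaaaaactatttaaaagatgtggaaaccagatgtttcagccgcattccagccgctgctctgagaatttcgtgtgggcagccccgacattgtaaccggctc

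A window was given for 7 of the 9 genes, and 7 motifs were searched on both strands in it and in all 32851 windows of the table. TGACGTCA, the cAMP response element, begins at position -83 of Has1 and at no place in the other 6 windows, and 1.79% of all windows hold it. TGANTCA, the AP-1 motif, begins at position -142 of Tnfaip6 alone among the 7, and 7.81% of all windows hold it. TTGCNNAA was found in Has1 alone (10.8% of all windows), and CCAAT in Tnfaip6, Hyal1, Vcan, Stab1 and Has1 (37.4% of all windows). A loose form of the NF-kB motif was found in Tnfaip6, Cd44, Hyal2 and Vcan (50.8% of all windows), while TATAAA (13.6%) and GGAAATTCC (0.317%) were in none of the 7. No motif was in both the Has1 and the Tnfaip6 window other than CCAAT.

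The synthases were genes of fibroblasts, the cells that make the collagen matrix around the vessel. Fibroblasts held 98.2% of the 42845 Has1 UMIs and 97.7% of the 9503 Has2 UMIs in named cells. In fibroblasts Has1 (ENSMUSG00000003665, protein-coding, chromosome 17, 17843323 to 17855205, GRCm38) had a lowest level of 611 CPM, a median of 768 CPM and a highest of 2079 CPM over 6 libraries. Only sums of at least 20 cells are compared here, and the highest level of Has1 among them outside fibroblasts was 189 CPM, in 97 Schwann cells, so all 6 fibroblast sums lay above every other sum. How large a share of all genes sets a class apart in this way was not counted, here and for the genes below. Macrophages stood last of 14 classes, with 5.95 ± 4.43 CPM (SD, n = 6), and lymphatic endothelium had 18.3 ± 9.46 CPM (n = 5).

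Has2 (ENSMUSG00000022367, chromosome 15, 56665627 to 56694539) had 97.2, 162 and 434 CPM in fibroblasts as its lowest, median and highest value. Its highest level outside them was 75.0 CPM in 75 neutrophils of the aged male library, and the groups did not overlap. Against the average of the remaining classes on the log scale, the log2 difference of fibroblasts was 6.02 ± 0.39 for Has1 (SE, edgeR adjusted p = 5.9e-18) and 5.80 ± 0.34 for Has2 (edgeR adjusted p = 1.2e-19). Of the 9 genes, 5 were called higher in fibroblasts and 0 lower, where calls have an adjusted p under 0.05. Lyve1 and Stab1, with 0 UMIs in all sums of another class, gave no usable error here and could not be called lower. The same limit bears on the share of all genes called lower. Over all 11144 genes tested 39.5% were called higher and 7.34% lower (46.9% in all), so calls were common in this comparison.

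The enzymes that supply the synthases were also high in fibroblasts. Of 8 precursor enzymes, 7 were called higher in fibroblasts and 0 lower, with a median log2 difference of 2.99 against 0.32 over all genes. Pgm3, which acts on the way to UDP-N-acetylglucosamine, had 58.2 ± 8.75 CPM in fibroblasts (SD, n = 6) and Gnpnat1, an acetyltransferase of the same route, had 75.4 ± 23.9 CPM. Ugp2, which makes UDP-glucose, the source of UDP-glucuronic acid, had 186 ± 50.2 CPM in fibroblasts, against 40.6 ± 11.7 CPM in macrophages and 28.7 ± 9.55 CPM in lymphatic endothelium. Over all genes 39.5% were called higher in fibroblasts. In macrophages 1 of the 8 enzymes was called higher and 4 lower, where 27.7% of all genes were called higher and 10.3% lower. In lymphatic endothelium 0 were called higher and 4 lower, where the shares were 21.7% and 6.29%, with Uap1, which forms UDP-N-acetylglucosamine, at 54.0 ± 35.3 CPM in lymphatic endothelium against 987 ± 664 CPM in fibroblasts. Has3, the remaining synthase, was too low to be tested, with a highest class mean of 3.15 CPM in blood endothelium.

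Shares of single cells with a UMI also put fibroblasts above T cells, the only classes compared in this way here. A Has1 UMI was found in 66.2% of 11775 fibroblasts (median depth 3601 UMIs) and in 0.984% of 1219 T cells, a class that should lack it (median depth 1522 UMIs). With each cell thinned to 1000 UMIs the shares were 41.7% of 11594 fibroblasts and 0.532% of 1128 T cells. For Has2 the thinned shares were 13.7% of fibroblasts and 0.177% of T cells. In barcodes of 1 to 100 UMIs, which hold mostly RNA free in the suspension, Has1 made up 43.9 to 449 CPM, and its part in the low levels outside fibroblasts was not tested.

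**Figure D1:**
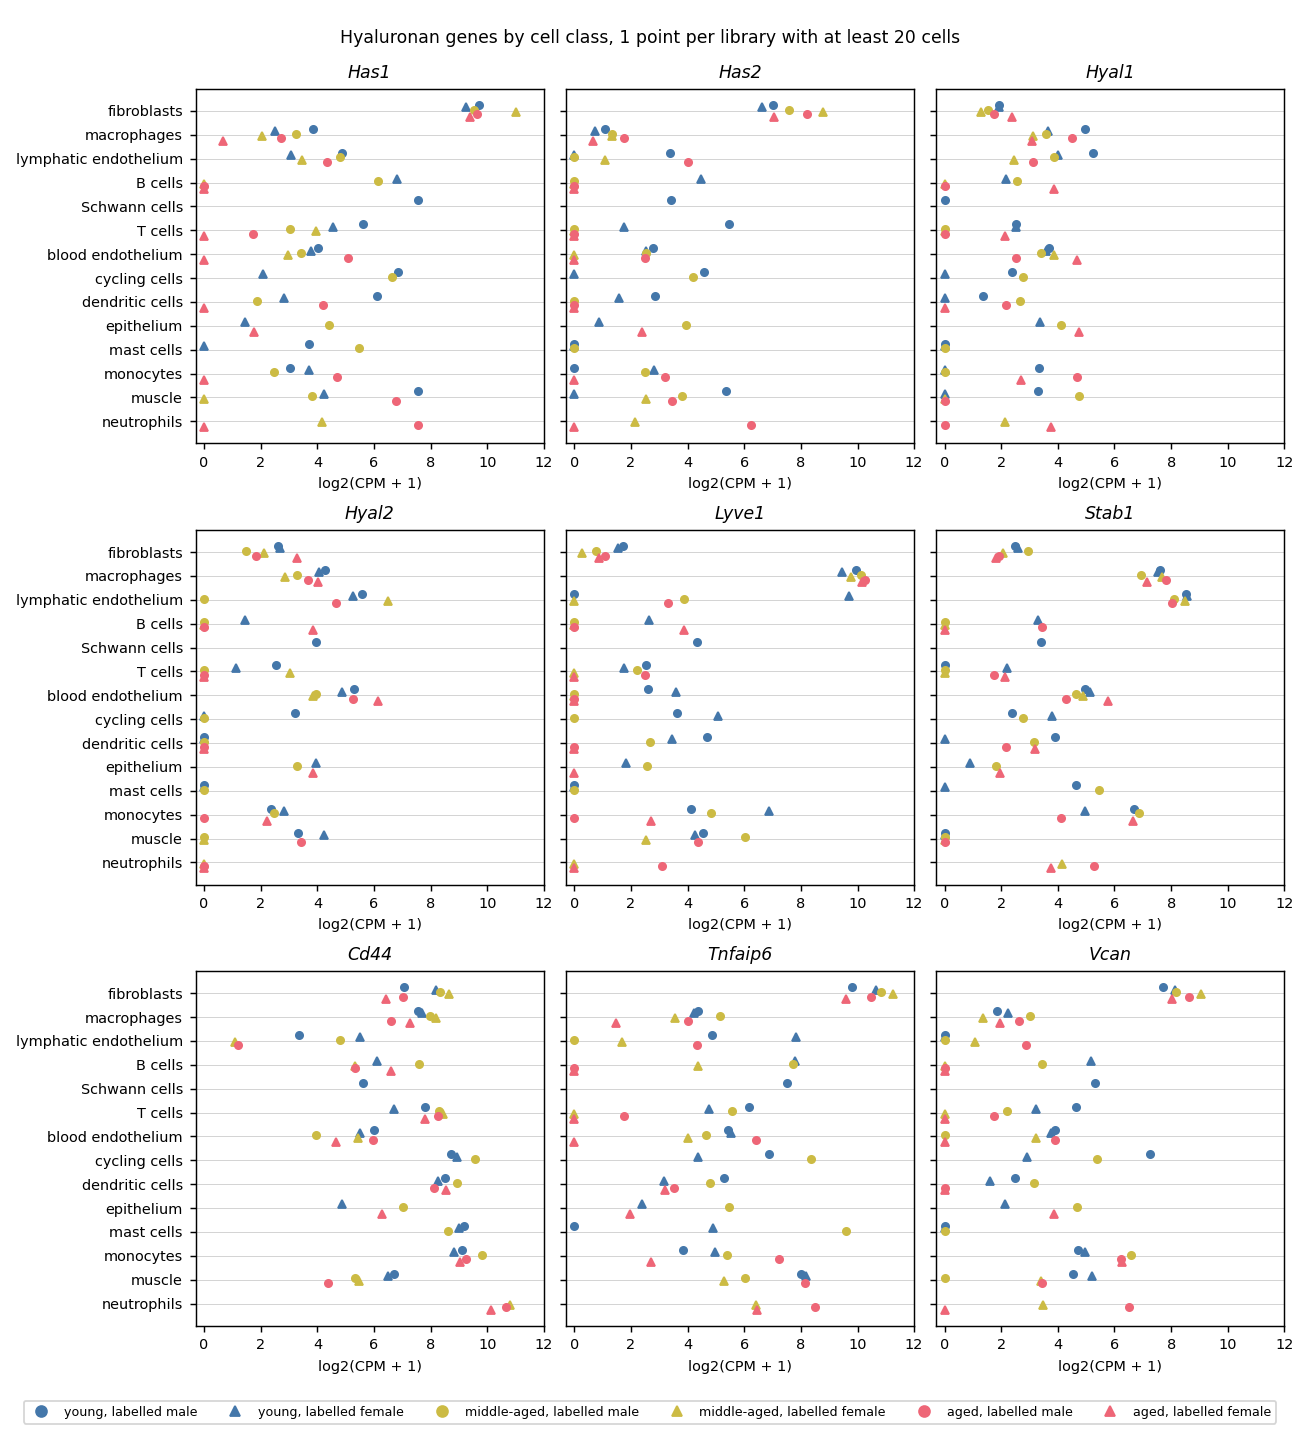
Level of each gene by cell class. The horizontal axis is log2(CPM + 1), each point is 1 library with at least 20 cells of the class, the colour gives the age and the shape the labelled sex. Has1, Has2 and Vcan have all 6 fibroblast points to the right of every other class, Lyve1 is highest in macrophages and Stab1 in lymphatic endothelium.

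The hyaluronidases were low in every class. Hyal1 (ENSMUSG00000010051, chromosome 9, 107576927 to 107581710), a lysosomal hyaluronidase, had 656 UMIs in all named cells and Hyal2 (ENSMUSG00000010047, chromosome 9, 107567945 to 107572779), an enzyme held at the cell surface that cuts long chains, had 790. The genes are neighbours on chromosome 9. Mean Hyal1 levels in epithelium (17.1 CPM), lymphatic endothelium (15.6 CPM), macrophages (14.9 CPM) and blood endothelium (12.5 CPM) overlapped in range. Fibroblasts, which led for the synthases, had 2.57 ± 0.93 CPM of Hyal1 and 4.50 ± 2.51 CPM of Hyal2 (SD, n = 6).

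Hyal2 was highest in endothelium. In lymphatic endothelium its levels were 46.5 and 37.3 CPM in the young male and female libraries, 0 CPM in the library labelled middle-aged male (0 of 73809 UMIs, which allows a level of up to 40.6 CPM at 3 counts), 89.5 CPM in the library labelled middle-aged female and 24.3 CPM in the aged male library. Blood endothelium ranged from 13.5 to 69.2 CPM over 6 libraries, so the endothelial classes overlapped. Against the average of the remaining classes the log2 difference of lymphatic endothelium was 4.45 ± 0.45 (SE, edgeR adjusted p = 1.5e-12) for Hyal2 and 1.93 ± 0.71 (edgeR adjusted p = 0.034) for Hyal1, and that of macrophages was 2.48 ± 0.43 and 2.48 ± 0.41 (edgeR adjusted p = 2.2e-06 and 5.2e-07). The Hyal1 call in lymphatic endothelium rests on 17 UMIs in 5 sums and was lost without the young female library (log2 1.81, edgeR adjusted p = 0.0826) or the library labelled middle-aged male (log2 1.93, edgeR adjusted p = 0.0512), with at least 1000 genes per barcode (log2 1.96, edgeR adjusted p = 0.238), by DESeq2 (log2 1.26, adjusted p = 0.0587) and against all other classes summed in the same library (log2 0.97, edgeR adjusted p = 0.181). Against those summed classes Hyal2 stood at 2.65 in lymphatic endothelium (edgeR adjusted p = 8.2e-10), higher in 4 of 5 libraries. The macrophage differences were smaller on that scale, at 0.96 for Hyal2 (edgeR adjusted p = 0.0113) and 1.67 for Hyal1 (edgeR adjusted p = 0.0151), each higher in 5 of 6 libraries.

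Another enzyme set lymphatic endothelium apart among the breakdown genes. Tmem2, a transmembrane protein that cuts hyaluronan at the cell surface in mice, had 255 ± 66.6 CPM in lymphatic endothelium (SD, n = 5), against 86.5 ± 15.4 CPM in blood endothelium, 75.1 ± 46.9 CPM in macrophages and 20.8 ± 10.5 CPM in fibroblasts (n = 6 each). Its log2 difference was 2.58 ± 0.24 in lymphatic endothelium (edgeR adjusted p = 2.7e-14). In macrophages the lysosomal enzymes that take the cut chain apart were called higher, with 574 ± 169 CPM of Hexa, more than in any other class, and 93.3 ± 20.8 CPM of Gusb. Of 7 listed breakdown symbols 4 could be tested, and 1 was called higher in lymphatic endothelium, 3 in macrophages and 3 in fibroblasts, where Tmem2 was called lower. Over all genes the shares called higher were 21.7%, 27.7% and 39.5% in these classes.

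Among the receptors, Lyve1 was a gene of macrophages in these libraries. Macrophages held 97.5% of its 14657 UMIs in named cells. In macrophages Lyve1 (ENSMUSG00000030787, chromosome 7, 110850607 to 110863239) had 707, 1058 and 1220 CPM as its lowest, median and highest value over 6 libraries, and its log2 distance to the average of the remaining classes was 8.44 ± 0.46 (SE, edgeR adjusted p = 9.6e-20). The only sum elsewhere that reached this range was the young female lymphatic endothelium, with 836 CPM. Of the 9 genes 4 were called higher (Lyve1, Stab1, Hyal1, Hyal2) and 2 lower (Has1, Tnfaip6) in macrophages, against 27.7% of all 11144 genes called higher and 10.3% lower (38.0% in all). Has2 and Vcan gave no usable error on the lower side in this comparison.

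Macrophages were not uniform for the receptors. In cluster 2, led by Cd209f and Cd209g, Lyve1 stood at 1287 CPM over all libraries and in cluster 3, led by Oasl1 and Il10, at 1179 CPM. Cluster 17, led by Lyz1 and Ear2, had 1.87 CPM. Stab1 followed the same order, with 243, 136 and 2.61 CPM in clusters 2, 3 and 17, while Cd44 ran the other way, with 63.4, 192 and 589 CPM. In every library with at least 20 cells of a cluster, cluster 17 had lower Lyve1 and Stab1 and higher Cd44 than clusters 2 and 3. Cluster 17 counted as macrophages in this clustering alone: at Leiden resolution 2, with at least 1000 genes per barcode, with doublets kept and with the members among the clustering genes, the cluster led by Lyz1 and Ear2 stayed unnamed because its leading genes held more markers of another class. None of the 9 genes was used to make the clusters, and the spread between clusters is a description with no test.

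**Figure D2:**
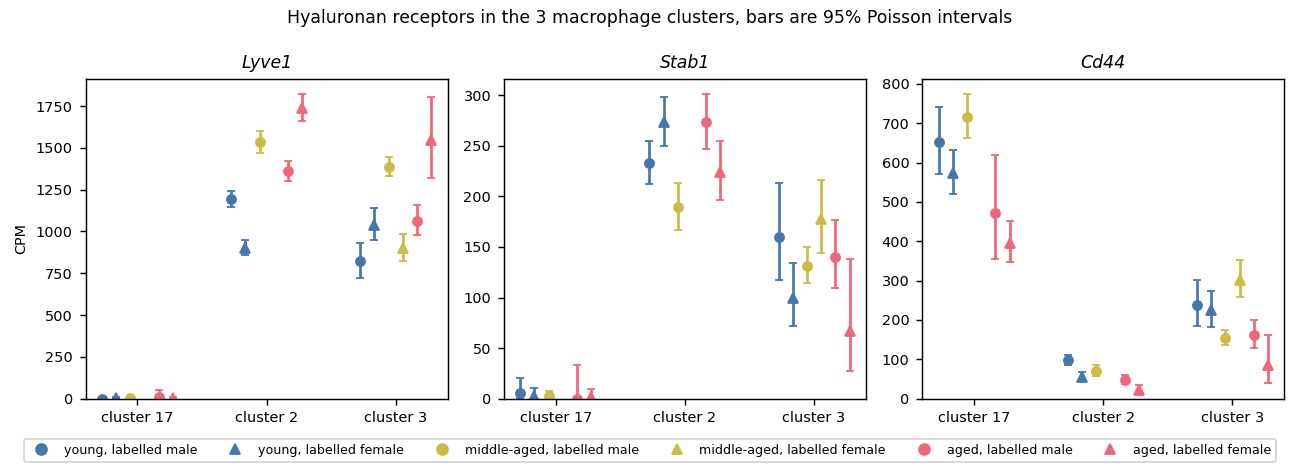
Lyve1, Stab1 and Cd44 in the macrophage clusters 17, 2 and 3. The vertical axis is CPM, each point is 1 library with at least 20 cells of the cluster and the bars are 95% Poisson intervals of the count. Lyve1 and Stab1 lie near 0 in cluster 17 (1.87 and 2.61 CPM over all libraries), where Cd44 is highest (589 CPM).

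Lymphatic endothelium, the lining of the vessel, was the class with the highest Stab1. The class of 258 cells was led by Nts, Mmrn1 and Prox1, and Prox1, the transcription factor that sets lymphatic identity, had a UMI in 232 of them (89.9%). Stab1 (ENSMUSG00000042286, chromosome 14, 31139013 to 31168641), a scavenger receptor related to the hyaluronan clearance receptor Stab2, had 363 and 381 CPM in the young male and female libraries, 271 and 358 CPM in the libraries labelled middle-aged male and female, and 260 CPM in the aged male library. The aged female library gave 4 such cells, too few to be summed. All 5 sums lay above the 6 macrophage sums (122 to 227 CPM), and every other class was lower still. The log2 distance to the average of the remaining classes was 5.16 ± 0.25 in lymphatic endothelium (SE, edgeR adjusted p = 2.2e-26) and 4.40 ± 0.21 in macrophages (edgeR adjusted p = 9.9e-27). A Stab1 UMI was found in 70.9% of lymphatic cells (median depth 5292 UMIs), 29.9% of macrophages (2287 UMIs) and 0.410% of T cells (1522 UMIs), and after thinning to 1000 UMIs in 28.3%, 14.95% and 0.0887%.

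Lyve1 was all but absent from most of this lymphatic endothelium. It had 0 UMIs in the young male library and in the library labelled middle-aged female, 1 UMI in the library labelled middle-aged male (13.5 CPM, interval 0.343 to 75.5), 7 UMIs in the aged male library (8.94 CPM, interval 3.59 to 18.4) and 112 UMIs in the young female library. For the library labelled middle-aged female, with 91 cells and 904785 UMIs, 0 UMIs allow a level of up to 3.32 CPM at 3 counts, and for the young male library, with 107431 UMIs, up to 27.9 CPM. These limits and the intervals, which are exact Poisson intervals at 95%, cover counting error only. Lyve1 was seen in 8 of 258 lymphatic cells (3.10%), against 68.5% of 5173 macrophages and 0.492% of T cells, and after thinning in 2.36%, 53.3% and 0.266%. A single cell of the young female library held 85 of its 112 Lyve1 UMIs, and without that cell the level there was 220 CPM.

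The few lymphatic cells with the chemokine gene Ccl21a all had Lyve1 as well. Of the 258 lymphatic cells 3 had a Ccl21a UMI, and all 3 had Lyve1. The cell with 85 Lyve1 UMIs had 122 Ccl21a, 41 Reln, 12 Flt4 and 4 Prox1 UMIs, and 5 Mrc1, 0 C1qa and 0 Csf1r UMIs of macrophage genes. Cells of the same young female library with 15, 8 and 4 Lyve1 UMIs had 0 Ccl21a UMIs. Of macrophage genes, those with 15 and 8 had 2 and 3 Mrc1 UMIs, and the one with 4 had 7 Mrc1, 3 C1qa and 3 Csf1r UMIs. A cell of the aged male library with 4 Lyve1 UMIs had 24 Ccl21a UMIs, and a cell of the library labelled middle-aged male with 1 Lyve1 UMI had 2. These counts are too small for a comparison between ages. Lyve1 passed against the average of the remaining classes (log2 3.48 ± 0.71, edgeR adjusted p = 1.3e-04), but without the young female library its log2 difference was 0.03 and the call was lost.

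**Figure D3:**
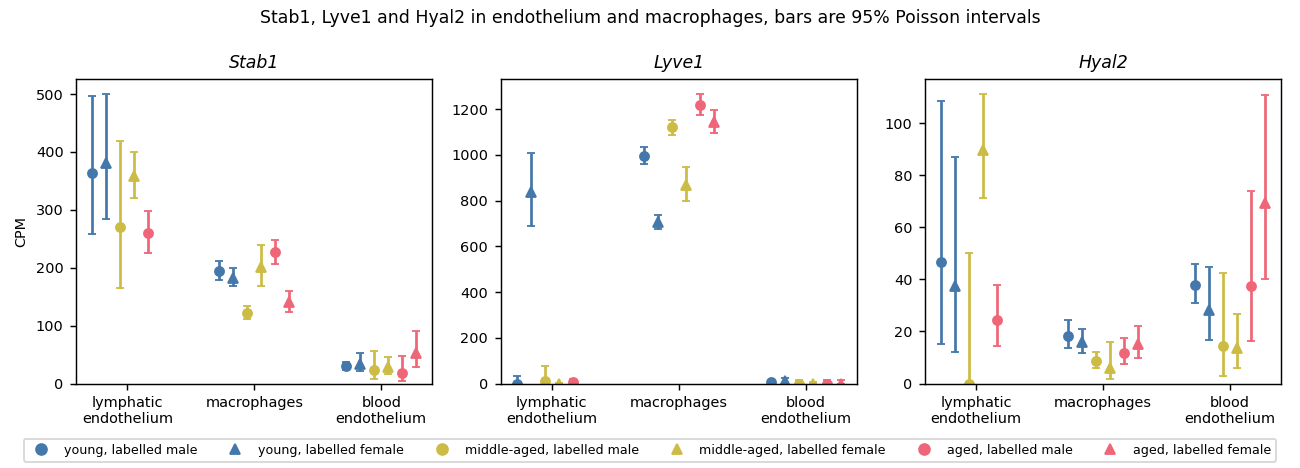
Stab1, Lyve1 and Hyal2 in lymphatic endothelium, macrophages and blood endothelium. The vertical axis is CPM, each point is 1 library with at least 20 cells and bars are 95% Poisson intervals of the count. Stab1 in lymphatic endothelium (260 to 381 CPM) lies above macrophages (122 to 227 CPM), and Lyve1 in lymphatic endothelium is at 836 CPM in the young female library and at 13.5 CPM or less in the others.

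Cd44 (ENSMUSG00000005087, chromosome 2, 102811141 to 102901665), the most widely expressed hyaluronan receptor, was highest in neutrophils. They had 1131 to 1776 CPM in 3 libraries, above every other sum, followed by monocytes (606 ± 173 CPM, n = 5), cycling cells (555 ± 177 CPM, n = 3) and mast cells (497 ± 99.3 CPM, n = 3), which overlapped. T cells (104 to 345 CPM), fibroblasts (227 ± 128 CPM) and macrophages (197 ± 69.0 CPM, SD, n = 6 for both of the last) overlapped as well. B cells had a lower mean of 86.7 CPM, but their range of 38.9 to 192 CPM overlapped these classes. Lymphatic endothelium was the lowest of 14 classes, with 9.31 and 44.8 CPM in the young male and female libraries, 27.1 and 1.11 CPM in the libraries labelled middle-aged male and female, and 1.28 CPM in the aged male library. These levels rest on 11 UMIs in all. In the young female library 3 lay in a cell with 60 Col3a1 and 108 Dcn UMIs, and 3 in a cell with 7 Mrc1 and 3 C1qa UMIs. Those of the library labelled middle-aged male lay in 1 cell with 8 Col3a1 and 16 Dcn UMIs. The part of such cells was not tested. Its log2 distance to the average of the remaining classes was -4.91 ± 0.59 (SE, edgeR adjusted p = 2.3e-09), and against all other classes summed in the same library it was lower in 5 of 5 libraries. Blood endothelium, at 14.5 to 63.3 CPM, was the next lowest class, and the ranges of the endothelial classes overlapped.

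For lymphatic endothelium, 4 of the 9 genes were called higher (Lyve1, Stab1, Hyal1, Hyal2) and 1 lower (Cd44), against 21.7% of all 11144 genes called higher and 6.29% lower (28.0% in all). Vcan gave no usable error on the lower side in this comparison. Of 5 other listed receptors 4 could be tested. Toll-like receptors Tlr2 and Tlr4, which sense microbial products and hyaluronan fragments, were called higher in macrophages, with 176 ± 73.6 CPM of Tlr2 and 45.3 ± 5.19 CPM of Tlr4 (SD, n = 6). In macrophages 2 of the 4 were called higher, beside 27.7% of all genes. In lymphatic endothelium 0 of the 4 were called. In fibroblasts 3 of the 4 were called higher, beside 39.5% of all genes.

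The hyaluronan-binding proteins were again genes of fibroblasts. Tnfaip6 (ENSMUSG00000053475, chromosome 2, 52038009 to 52056686) encodes TSG-6, which is induced by inflammatory signals and moves protein chains onto hyaluronan, and Vcan (ENSMUSG00000021614, chromosome 13, 89655312 to 89742509) encodes versican, a large proteoglycan that binds hyaluronan at its end. Fibroblasts held 97.6% of the 69635 Tnfaip6 UMIs and 95.7% of the 15008 Vcan UMIs. In fibroblasts Tnfaip6 had 773, 1515 and 2468 CPM as its lowest, median and highest value, and 5 of the 6 fibroblast sums lay above the highest sum elsewhere, 778 CPM in 20 mast cells of the library labelled middle-aged male. Vcan had 207, 285 and 535 CPM in fibroblasts, all above the highest sum elsewhere (151 CPM in cycling cells of the young male library). The log2 differences of fibroblasts were 5.46 ± 0.45 (SE, edgeR adjusted p = 1.7e-14) for Tnfaip6 and 5.25 ± 0.32 (edgeR adjusted p = 8.3e-19) for Vcan.

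Both genes were low in the other main classes. Macrophages had 16.5 ± 10.9 CPM of Tnfaip6 and 3.85 ± 2.04 CPM of Vcan (SD, n = 6), and monocytes had 60.6 ± 31.0 CPM of Vcan (n = 5). Free RNA in barcodes of 1 to 100 UMIs held 53.8 to 840 CPM of Tnfaip6, and its part in these low levels was not tested. Among the other binding proteins, Itih5, a heavy chain of the inter-alpha-trypsin inhibitor family that can be linked to hyaluronan, had 673 ± 234 CPM in fibroblasts (n = 6), against 4.56 ± 1.29 CPM in macrophages (n = 6). Itih2 of the same family was called higher in lymphatic endothelium, with 40.7 ± 15.3 CPM (n = 5), against 0.611 ± 0.469 CPM in fibroblasts and 0 CPM in macrophages and blood endothelium, and 97 Schwann cells of the young male library had 48.4 CPM. Of 16 genes in that list 5 could be tested, and 3 were called higher in fibroblasts, 1 in lymphatic endothelium and 0 in macrophages, where 39.5%, 21.7% and 27.7% of all genes were called higher.

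For genes with 0 UMIs in all sums of a class, such as Stab1 in muscle and Lyve1, Has2 and Vcan in mast cells, the mean of logs gave no usable error for the lower side, so each class was also set against all other classes summed in the same library, an alternative chosen after the data were seen. In fibroblasts 4 members were then called higher and 4 lower, against 29.1% of 12247 genes higher and 25.0% lower (54.1% in all). Lyve1 was lower in fibroblasts by a log2 of -8.01 ± 0.45 (edgeR adjusted p = 3.8e-06) and Stab1 by -4.27 ± 0.37 (edgeR adjusted p = 3.4e-05), each in 6 of 6 libraries. In macrophages 4 members were called higher and 4 lower, against 28.1% and 32.8% of 11477 genes (60.9% in all). Has2 stood at -6.41 ± 0.18 (edgeR adjusted p = 2.9e-09) and Vcan at -5.40 ± 0.26 (edgeR adjusted p = 4.6e-08). In lymphatic endothelium 2 members (Stab1, Hyal2) were called higher and 4 (Cd44, Has1, Has2, Vcan) lower, against 11.6% and 21.7% of 10785 genes (33.3% in all), and Vcan stood at -6.68 ± 0.47 (edgeR adjusted p = 2.7e-43). Cd44, called higher in fibroblasts against the average of the remaining classes (log2 0.70 ± 0.26, edgeR adjusted p = 0.0209), stood at 0.20 against the summed classes (adjusted p = 0.499), higher in 3 of 6 libraries. Lyve1 in lymphatic endothelium turned to -2.85 (adjusted p = 0.363), higher in 1 of 5.

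With age, no member passed the test in fibroblasts. Both synthases, both binding proteins and Cd44 were highest in the library labelled middle-aged female. By edgeR, 0 of 11919 genes and 0 of the 9 were called in aged against young fibroblasts (0% of all genes), and likewise in middle-aged against young (0%). At an unadjusted p under 0.05 there were 650 and 1047 genes, and DESeq2 called 63 and 71.

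Has1 had 834 and 611 CPM in the young male and female libraries, 747 and 2079 CPM in the libraries labelled middle-aged male and female, and 790 and 668 CPM in the aged male and female libraries. The library labelled middle-aged female stands far above the other 5, which lie close together, and aged and young overlap. The log2 difference was -0.08 ± 0.53 (SE) for aged against young and 1.10 ± 0.53 for middle-aged against young. Has2 had 129 and 97.2 CPM in the young, 190 and 434 CPM in the middle-aged and 293 and 133 CPM in the aged pair of libraries, in the same order of labelled sex. Both middle-aged and both aged values lie above both young ones, the lowest of them by a small margin. The share of all genes ordered likewise was not counted, here and for the genes below. The Has2 differences were 0.85 ± 0.58 (edgeR adjusted p = 0.935) for aged and 1.59 ± 0.59 (edgeR adjusted p = 0.543) for middle-aged against young, and neither passed. At each age the library with Y-linked counts had the higher Has1 and the higher Has2 level, and the part of sex in these levels was not tested.

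Tnfaip6 had 889 and 1614 CPM in the young, 1836 and 2468 CPM in the middle-aged and 1415 and 773 CPM in the aged male and female libraries. Both middle-aged values lie above both young ones, and the aged values lie in and below the young range. Vcan had 207 and 284 CPM in the young, 287 and 535 CPM in the middle-aged and 400 and 258 CPM in the aged libraries, with aged and young overlapping. Cd44 had 131 and 292 CPM in the young, 320 and 402 CPM in the middle-aged and 131 and 84.7 CPM in the aged libraries, so that both aged values lie at or below the lower young one. Middle-aged against young the differences were 0.94 ± 0.43 for Tnfaip6, 0.90 ± 0.42 for Vcan and 0.94 ± 0.41 for Cd44, each with edgeR adjusted p = 0.543. Aged against young they were -0.22 ± 0.42 for Tnfaip6 (edgeR adjusted p = 0.960), 0.38 ± 0.41 for Vcan (edgeR adjusted p = 0.942) and -0.99 ± 0.41 for Cd44 (edgeR adjusted p = 0.906). Lyve1, Stab1, Hyal1 and Hyal2, which were low in fibroblasts, stood at -1.96, 0.14, -0.61 and -0.95 for middle-aged against young. For aged against young they stood at -1.13, -0.92, 0.05 and -0.12, and none was called.

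**Figure D4:**
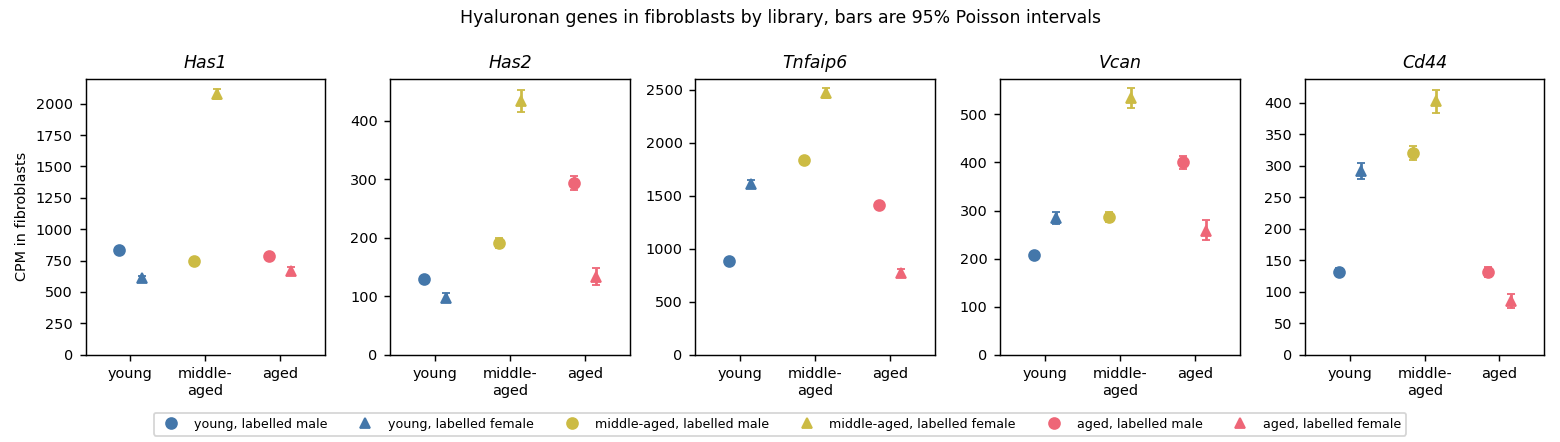
Has1, Has2, Tnfaip6, Vcan and Cd44 in fibroblasts by age. The vertical axis is CPM from 0, each point is 1 library, the shape gives the labelled sex and the bars are 95% Poisson intervals of the count. The library labelled middle-aged female is the highest for all 5 genes, at 2079 CPM of Has1 and 434 CPM of Has2.

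Other measures moved with that library. Its inflammatory list summed to 23880 CPM in fibroblasts, against 2931 to 10516 CPM in the other 5, its hyaluronan precursor enzymes to 8296 CPM against 2543 to 5423 CPM, and its kept cells had a median of 7508 UMIs against 2536 to 4188. The immediate early and dissociation genes summed to 9317 CPM there and to 11304 to 13311 CPM elsewhere. None of the 15 immediate early or 9 inflammatory genes tested was called in fibroblasts in either age comparison, with medians of -0.21 and 0.67 for aged and -0.27 and 1.83 for middle-aged against young, beside -0.00389 and -0.0252 over all genes. Within the Krtdap cluster, which 3 libraries share, Has1 was at 1257 CPM in 37 cells of the library labelled middle-aged male, 2302 CPM in 364 cells of the library labelled middle-aged female and 903 CPM in 1296 cells of the aged male library. Within the cluster led by Agt and C7 it was at 590, 734 and 280 CPM in the young male library, the library labelled middle-aged female and the aged male library, and Tnfaip6 was at 1064, 3261 and 1367 CPM. The part of the inflammatory level, of depth and of the cluster make-up in the high levels was not tested.

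In macrophages the aged libraries had the highest Lyve1. It was at 995 and 707 CPM in the young male and female libraries, 1120 and 870 CPM in those labelled middle-aged male and female, and 1220 and 1145 CPM in the aged male and female libraries. Both aged values lie above both young ones, and the middle-aged values overlap the young. How large a share of all genes is ordered likewise was not counted. The difference did not pass: it was 0.50 ± 0.29 on the log2 scale for aged (edgeR adjusted p = 1.00) and 0.46 ± 0.29 for middle-aged against young (edgeR adjusted p = 0.523). Over all genes edgeR called 0 of 9477 (0%) in aged and 3 (0.0317%) in middle-aged against young macrophages, with 354 and 1125 at an unadjusted p under 0.05 and 4 and 113 called by DESeq2, and 0 of the 8 tested members.

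Inside the Lyve1-rich macrophage clusters the aged libraries also lay above the young ones. In cluster 2 Lyve1 was at 1363 and 1737 CPM in the aged male and female libraries, against 1191 and 903 CPM in the young ones, and in cluster 3 at 1066 and 1547 CPM against 821 and 1041 CPM. The aged female value in cluster 3 rests on 26 cells, and the aged male value there lies close to the young female one. How many of all genes are ordered likewise within these clusters was not counted. Of the middle-aged pair, the one labelled male stood at 1534 CPM in cluster 2 and 1387 CPM in cluster 3, above the aged male library in both, and the one labelled female at 900.4 CPM in cluster 3, with under 20 cells in cluster 2. Cluster 17, which has almost no Lyve1, made up 5.25% and 27.5% of aged male and female macrophages, against 10.4% and 17.4% of young ones. Without it, an alternative chosen after the data were seen, 0 members were called. Cd44 in macrophages was at 185 and 205 CPM in the young, 254 and 288 CPM in the middle-aged and 97.1 and 152 CPM in the aged male and female libraries. These 3 pairs do not overlap, and the share of all genes whose pairs separate likewise was not counted. The differences, -0.65 ± 0.29 for aged (edgeR adjusted p = 1.00) and 0.72 ± 0.29 for middle-aged against young (edgeR adjusted p = 0.39), did not pass. Stab1 lay between 122 and 227 CPM in macrophages, with log2 differences of -0.01 and 0.01. Has1, Hyal1, Hyal2, Tnfaip6 and Vcan, all low there, stood at -1.39, -0.42, -0.34, -1.03 and 0.40 for aged against young. For middle-aged against young they stood at -0.14, -0.80, -0.87, 0.69 and 1.03. None was called, and Has2 had too few UMIs to be tested. Of the 8 listed genes of resident macrophages all 8 were called higher in macrophages than on average in the remaining classes, and 0 were called in either age comparison, with medians of -0.004 for aged and 0.07 for middle-aged against young. The inflammatory list added up to 7431 and 5083 CPM in the young, 15648 and 24659 CPM in the middle-aged and 12696 and 4948 CPM in the aged macrophages, with 0 of 9 called, and its part in these levels was not tested.

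In lymphatic endothelium the aged male library, with 96 cells, stands alone for its age. The aged fit assumes that it varies like the young and middle-aged pairs, so its calls compare 1 library with the young pair. By edgeR 278 of 3116 genes (8.92%) were called in aged against young, 4.97% higher and 3.95% lower, and 77 (2.47%) in middle-aged against young, 1.51% higher and 0.963% lower, and only 4 of the 9 genes, Lyve1, Stab1, Hyal2 and Tnfaip6, had enough UMIs to be tested. DESeq2 called 41 genes for aged, and for middle-aged it gave no adjusted p for these 4 members. Stab1 was at 260 CPM in aged male, against 363 and 381 CPM in the young libraries, a log2 difference of -0.51 ± 0.41 (SE, edgeR adjusted p = 0.448), and the middle-aged difference was -0.20 ± 0.35 (edgeR adjusted p = 0.864). The 4 cells of the aged female library, which were not fitted, had 5 Stab1 UMIs (298 CPM, interval 96.8 to 696). Hyal2 differed by -0.77 for aged and 0.62 for middle-aged against young. Lyve1 differed by -5.49 ± 3.50 for aged and -8.21 ± 4.07 for middle-aged against young, neither past the threshold, and every young Lyve1 UMI lay in the young female library. In the same fits, and so for the aged side again from 1 library, of 15 immediate early genes 3 were called higher and 4 lower in aged lymphatic endothelium, and 2 higher and 1 lower in middle-aged. Of 5 inflammatory genes tested 3 and 1 were called higher.

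Tnfaip6 was the only member called in an age comparison. It had 3 and 30 UMIs in the young male and female lymphatic endothelium (27.9 and 224 CPM), 0 and 2 UMIs in the libraries labelled middle-aged male and female, and 15 UMIs (19.1 CPM) in the aged male library. Middle-aged against young it was lower, with a log2 difference of -5.75 ± 1.25 (edgeR adjusted p = 7.6e-04), and aged against young it stood at -2.70 ± 1.09 (edgeR adjusted p = 0.0966). The call rests on 1 cell: 28 of the 30 young female UMIs came from a cell that also had 37 Col1a1, 60 Col3a1 and 108 Dcn UMIs, genes of fibroblasts, and without it the young female level was 16.5 CPM. Without the library labelled middle-aged female the call was lost (log2 -8.14, adjusted p = 0.131), and without the young male library Lyve1 (-9.07 in middle-aged, -6.25 in aged) and aged Tnfaip6 (-3.27) also passed. There the young side is 1 library, as is the aged side, and the spread comes from the middle-aged pair alone, so aged against young has no replicate check. Aged Tnfaip6 also passed without the library labelled middle-aged male (-2.53) or female (-2.70). Without the young female library the middle-aged difference of Tnfaip6 was -3.56 (adjusted p = 0.638), and with that cell and the cell richest in Lyve1 left out Tnfaip6 had too few UMIs to be tested, while Lyve1 stood at -6.20 and passed (adjusted p = 0.0361). The 8 markers of fibroblasts, of which 0 or 1 was at 0 in each fitted lymphatic sum, added up to 1899 and 2860 CPM in the young, 1314 and 188 CPM in the middle-aged and 683 CPM in the aged male lymphatic endothelium. The 9 markers of macrophages, of which 3 to 6 were at 0, added up to 289 and 314, 81.3 and 11.1, and 25.5 CPM. Their part in the Tnfaip6 and Lyve1 differences was not tested.

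The change with age was also compared between classes. For aged against young macrophages minus fibroblasts, 0 of 11859 genes (0%) were called, with 575 at an unadjusted p under 0.05 and 0 called by DESeq2. Lyve1 stood at 1.56 ± 0.44 (SE, edgeR adjusted p = 0.573), where the fibroblast side rests on 9 and 2 UMIs in the aged libraries and 34 and 13 UMIs in the young ones. For lymphatic endothelium minus fibroblasts 49 of 12105 genes (0.405%) were called, 0.273% higher and 0.132% lower, and 0 members. There Tnfaip6 stood at -2.32 ± 0.71 and Cd44 at -3.28 ± 1.29, with 1 aged library on the lymphatic side. The lymphatic side of Cd44 rests on 11 UMIs over all libraries. On simulated counts the fit of lymphatic endothelium minus fibroblasts recovered few of the changes put in. Its lack of called members therefore says little. The fit of macrophages minus fibroblasts recovered more, but fewer than the age fits within either class.

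Across the 62 sums of 14 classes, the gene whose level ran most like Has1 was Gfpt2, which feeds the hexosamine route to UDP-N-acetylglucosamine (Pearson r = 0.869 of log2(CPM + 1), over 10513 genes searched). In fibroblasts Gfpt2 was at 781 and 730 CPM in the young, 1205 and 2619 CPM in the middle-aged and 1846 and 651 CPM in the aged male and female libraries, so the highest library was again the one labelled middle-aged female. Serpinf1 and Dcn, genes of fibroblasts, followed for Has1 with r = 0.832 and 0.831. Has1 itself was among the 3 genes most like Has2 (r = 0.825, after Lgi2 with 0.844) and like Tnfaip6 (r = 0.770, after Gsn with 0.807), and Has2 among those most like Vcan (r = 0.768, after Axl with 0.772). The third places were held by Adgrg2 for Has2 (0.824), Mmp3 for Tnfaip6 (0.765) and Lrrc17 for Vcan (0.755).

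The receptors ran with other genes. Lyve1 ran most like Cd209f (r = 0.833), Folr2 (0.777) and Fcna (0.766), genes of resident macrophages. Stab1 ran most like Chp2 (0.755), Trpv4 (0.733) and Ptgs1 (0.732), Cd44 most like Camk1d (0.778), Apbb1ip (0.745) and Osm (0.735), and Hyal2 most like Ephb4 (0.758), Afap1l1 (0.736) and Nuak1 (0.731), Ephb4 being a receptor of venous and lymphatic endothelium. For Hyal1 the highest r were 0.604 (Jup), 0.594 (Smagp) and 0.593 (Trappc11). The sums share libraries, depths and class, and these values describe the pattern over classes and carry no test.

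**Figure D5:**
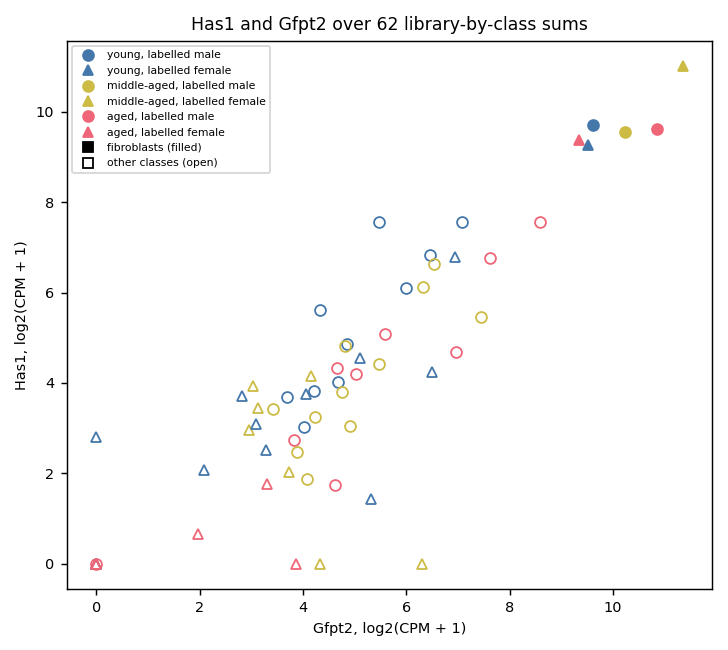
Has1 and Gfpt2 over the 62 sums of 1 class in 1 library. Both axes are log2(CPM + 1), filled points are fibroblasts and open points the other classes, with colour for age and shape for labelled sex. The 6 fibroblast sums lie at the upper right, the library labelled middle-aged female highest, and the correlation over all sums is 0.869.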

How the data were processed

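Single-cell RNA was measured in 6 libraries. Per the submitters' processing notes, reads were processed with Cell Ranger 3.0.2 on mm10, and the deposited values are raw UMI counts for each gene and barcode, not normalized. Seurat is named there without a version. The 9 members, the gene lists and the tests were chosen with earlier results of these data known, and the lists give no independent support.

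Kept barcodes had 500 genes or more and no more than 10% of UMIs mitochondrial. Doublets were marked with Scrublet in scanpy 1.11.5 (6% expected) and left out. Clusters were made by Leiden at resolution 1 from 2000 variable genes, 30 principal components and 15 neighbours, leaving out 46 genes, the members and the other listed hyaluronan genes. A class name needed 3 markers. Counts were summed for each library and class of at least 20 cells, giving 62 sums of 14 classes.

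Age was fitted with 3 levels, and each class was set against the average of the remaining classes with a block for library, by edgeR 4.0.16 (R 4.3.3), a quasi-likelihood test with TMM factors, edgeR's filter on low counts and Benjamini-Hochberg adjustment over all genes tested, with a threshold of 0.05. Fits were tested on simulated data. Labelled sex was left out of the model because the middle-aged labels went against Xist and Y-linked counts. DESeq2 1.42.0 was an alternative, and the others are given in the closing section. All 9 members were looked at in every main comparison. Members not named in a main comparison were not called there or had too few UMIs to be tested. Also named are up to 4 called genes of the other hyaluronan lists by smallest adjusted p, and the 3 genes most correlated with each member among genes of at least 5 CPM. Sequences are from RefSeq (GRCm38.p6) and positions from GENCODE M21. Totals and medians per library, from 9616652 to 28921825 UMIs, bound the precision. Among the classes fitted for age, counts in lymphatic endothelium (73809 to 904785 UMIs per fitted sum) are the thinnest, and mast cells in the class comparisons are thinner, down to 23149 UMIs.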

Additional observations from a re-analysis of the deposited data

How the results depend on the processing

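Of 39 differences of single members, 23 kept their direction and their side of the threshold under every alternative run, and of 537 recomputed values 497 did, 19 lost a call, 11 gained one and 10 turned direction. Lyve1 in lymphatic endothelium against the other classes, a called difference, turned to -0.31 with at least 1000 genes per barcode and -2.85 against the other classes summed per library. The other 8 were called in neither fit. In aged against young fibroblasts Has1 turned positive without the young male or the aged female library (range on leaving out 1 library -0.40 to 0.30), Tnfaip6 without the young or the aged female one (-0.83 to 0.20) and Vcan negative without the aged male one (-0.074 to 0.71). Cd44 in aged macrophages turned to 0.0086 with at least 1000 genes per barcode, Lyve1 in aged lymphatic endothelium to 1.84 with labelled sex as a covariate and the middle-aged labels exchanged, and Stab1 in middle-aged lymphatic endothelium to 0.13 without the library labelled middle-aged male (-0.58 to 0.13). With no filter on low counts Has2 was called higher in middle-aged fibroblasts (1 member, log2 1.55, adjusted p = 7.8e-04) and Tnfaip6 lower in aged lymphatic endothelium (1 member). In middle-aged lymphatic endothelium 0 members were called on thinned sums and 2 with labelled sex as a covariate and the middle-aged labels exchanged. Leaving out 1 library gave 0 to 2 members in aged and 0 to 2 in middle-aged lymphatic endothelium, and 0 to 1 for lymphatic endothelium minus fibroblasts. Against the summed classes 8 members were called in fibroblasts, and on thinned sums 2 in macrophages and 3 in lymphatic endothelium, where only 1976 genes passed the filter. The other causes were not tested. Cd44 in fibroblasts lost its call under DESeq2 (log2 0.56, adjusted p = 0.0955), on thinned sums (0.60, adjusted p = 0.170) and without any 1 of 4 libraries (0.45 to 0.68).

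Counts over all genes moved more. In fibroblasts DESeq2, no filter and the exchanged sex labels called 63, 317 and 53 genes for aged and 71, 448 and 56 for middle-aged, against 0 and 0. In macrophages they called 4, 48 and 11 for aged and 113, 300 and 118 for middle-aged, against 0 and 3. In aged lymphatic endothelium DESeq2, no filter, thinned sums and labelled sex called 41, 160, 109 and 132 genes, against 278, and in middle-aged DESeq2, thinned sums and labelled sex called 18, 36 and 41, against 77. Leaving out 1 library gave 146 to 369 genes in aged and 17 to 89 in middle-aged lymphatic endothelium, 0 to 2 in aged and 0 to 13 in middle-aged macrophages, 0 to 1 in fibroblasts for both, 0 to 86 for macrophages minus fibroblasts and 10 to 138 for lymphatic endothelium minus fibroblasts. Thinned sums called 577, 561 and 453 genes in fibroblasts, macrophages and lymphatic endothelium by class, against 5224, 4238 and 3120, and the summed classes 6994 in macrophages. For macrophages minus fibroblasts no filter called 98 genes, Leiden resolution 2, members among the clustering genes and leaving out cluster 17 called 7 each and thinned sums 1, against 0. For lymphatic endothelium minus fibroblasts DESeq2 called 2 and thinned sums 3, against 49. In middle-aged macrophages kept doublets, members among the clustering genes and leaving out cluster 17 called 5 each and Leiden resolution 2 called 1, against 3. DESeq2 moved the median of all genes by class from 0.32, 0.07 and 0.09 in fibroblasts, macrophages and lymphatic endothelium to 0.07, -0.11 and -0.09. Under DESeq2 57.5%, 48.7% and 57.1% of the called genes were higher in these classes, against 84.3%, 73.0% and 77.5% under edgeR. DESeq2 gave 31.7% higher calls for aged and 47.9% for middle-aged fibroblasts.

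No paired analysis of the ages was possible because the labels link no libraries across ages, while the class comparisons had a block for library. The nearest to a block in the age fits is sex as a covariate. As labelled, it called 0 members in fibroblasts and macrophages and kept the Tnfaip6 call in middle-aged lymphatic endothelium (log2 -6.38, edgeR adjusted p = 0.0067). These labels go against the Xist and Y-linked counts of the middle-aged pair. With the middle-aged labels exchanged, 53 genes were called in aged and 56 in middle-aged fibroblasts, against 0 and 1 as labelled. In middle-aged lymphatic endothelium 2 members were then called. DESeq2 gave no adjusted p for the members in middle-aged lymphatic endothelium. Lymphatic age fits with at least 1000 genes per barcode, and the aged one without the aged male library, could not be made. Alternatives added after seeing the data were the summed classes, leaving out macrophage cluster 17 (0 members called) and leaving out 2 lymphatic cells.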
